A study of Mus musculus with 10 samples.

Results

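Neuronal RNA-binding and splicing factors were examined in the prostates of TRAMP mice, as 10 genes chosen by their annotation symbol: the Hu family genes Elavl2, Elavl3 and Elavl4, Nova1 and Nova2, Celf3 and Celf4, Srrm4, and Rbfox1 and Rbfox3. All 10 were found among the 19938 genes with a single-symbol probe set, each read from its probe set of highest mean level. The members were chosen with values of these arrays known, so the differences between mice given here are a description, and the test is that of nicotine against water across all 14953 genes that passed a filter on low values. The filter kept genes with a mean over all arrays above 6.55 log2 units. All 10 members passed it, but the water means of Elavl2, Elavl4 and Srrm4 lay below that level, so those 3 passed through their values in the nicotine group.

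Total RNA of whole prostates was measured on whole-transcript arrays, 1 array for each of 10 male mice. TRAMP mice carry a viral T antigen driven by the promoter of Pbsn, the secretory probasin gene of the prostate epithelium, so all 10 prostates carried the same oncogene and no prostate without it was measured. The control group was 5 mice on tap water, and the treated group was 5 mice given nicotine, as its tartrate salt, at 250 µg/ml in the drinking water, from an age of 8 to 9 weeks in both groups. The labels do not state the age at which the tissue was taken.

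Cells read their messenger RNAs through proteins that bind them, and neurons carry sets of such proteins that most other cells lack. Elavl proteins bind AU-rich elements and steady the messages that hold them, Nova, Celf and Rbfox proteins set which exons are kept by binding short motifs beside them, and Srrm4 brings the very short microexons of neuronal messages into the transcript. One target of Srrm4 is the message of Rest, the repressor of neuronal genes outside the nervous system. Hu and Nova proteins were first known as targets of autoantibodies in patients with tumours, which for Hu were small cell neuroendocrine tumours. Raised SRRM4 is a known feature of human neuroendocrine prostate cancer. The deposited values are 1 summary per probe set, so splicing itself was not measured here.

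Upstream sequences of 3 members are shown, since Elavl3 and Elavl4 are the Hu genes that differed most from the water mean in nicotine mice 1 and 3, while Nova2 lay within 1 log2 unit of it in both. They come from RefSeq on GRCm38.p6, run 5′ to 3′ on the gene's strand and stop before the outermost annotated start of the gene. Capitals mark CG dinucleotides, of which they hold 5, 10 and 10.
Elavl3, chr9:22052147-22052273, minus strand: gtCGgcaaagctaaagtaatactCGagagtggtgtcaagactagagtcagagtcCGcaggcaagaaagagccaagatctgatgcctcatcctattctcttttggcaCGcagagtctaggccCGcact
Elavl4, chr4:110351940-110352161, minus strand: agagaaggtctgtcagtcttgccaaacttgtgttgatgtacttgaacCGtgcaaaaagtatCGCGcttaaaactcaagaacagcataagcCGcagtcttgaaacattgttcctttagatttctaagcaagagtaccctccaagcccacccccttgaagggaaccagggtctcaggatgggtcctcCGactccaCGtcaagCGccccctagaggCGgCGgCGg
Nova2, chr7:18925638-18925887, plus strand: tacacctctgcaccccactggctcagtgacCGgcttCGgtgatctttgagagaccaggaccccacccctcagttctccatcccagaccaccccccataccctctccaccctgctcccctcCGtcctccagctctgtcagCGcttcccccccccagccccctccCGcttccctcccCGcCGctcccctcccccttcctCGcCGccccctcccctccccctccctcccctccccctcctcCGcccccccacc

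The RefSeq table matched 9 of the 10 members, with 24 promoter windows that run from 250 bases before to 50 bases after a start. The letters TTCAGCACC, the left arm of the RE1 element bound by Rest, were found on neither strand of the 24 windows, against 0.371% of all 32851 windows. At so low a share, no match in 24 windows is the likely outcome for any set of genes. The absence therefore says nothing about Rest at these genes. Only these exact letters within the windows were searched. Windows of 1 gene can overlap, and a member has up to 7 of them, so the counts are a description.

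Most of the neuronal factors stood high in the same 2 prostates, those of nicotine mice 3 and 1, and low in the other 8. In nicotine 3, 10 of 10 members lay above every water mouse, as did 38.0% of all tested genes, and 8 of 10 lay more than 1 log2 unit above the water mean, as did 10.7% of all tested genes. In nicotine 1 the counts were 8 of 10 above every water mouse (34.1% of all tested genes, and 23.3% in both mice at the same time) and 7 of 10 more than 1 log2 unit above the water mean (5.54%). The same 7 members, all but Nova1, Nova2 and Rbfox3, passed 1 log2 unit in both mice (3.64% of all tested genes). More than 3 log2 units above the water mean in nicotine 3 lay 6 of 10, namely Elavl2, Elavl3, Elavl4, Nova1, Celf4 and Rbfox1 (1.01%). The members were picked for this pattern, so these shares set the scale and support nothing.

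**Figure D1:**
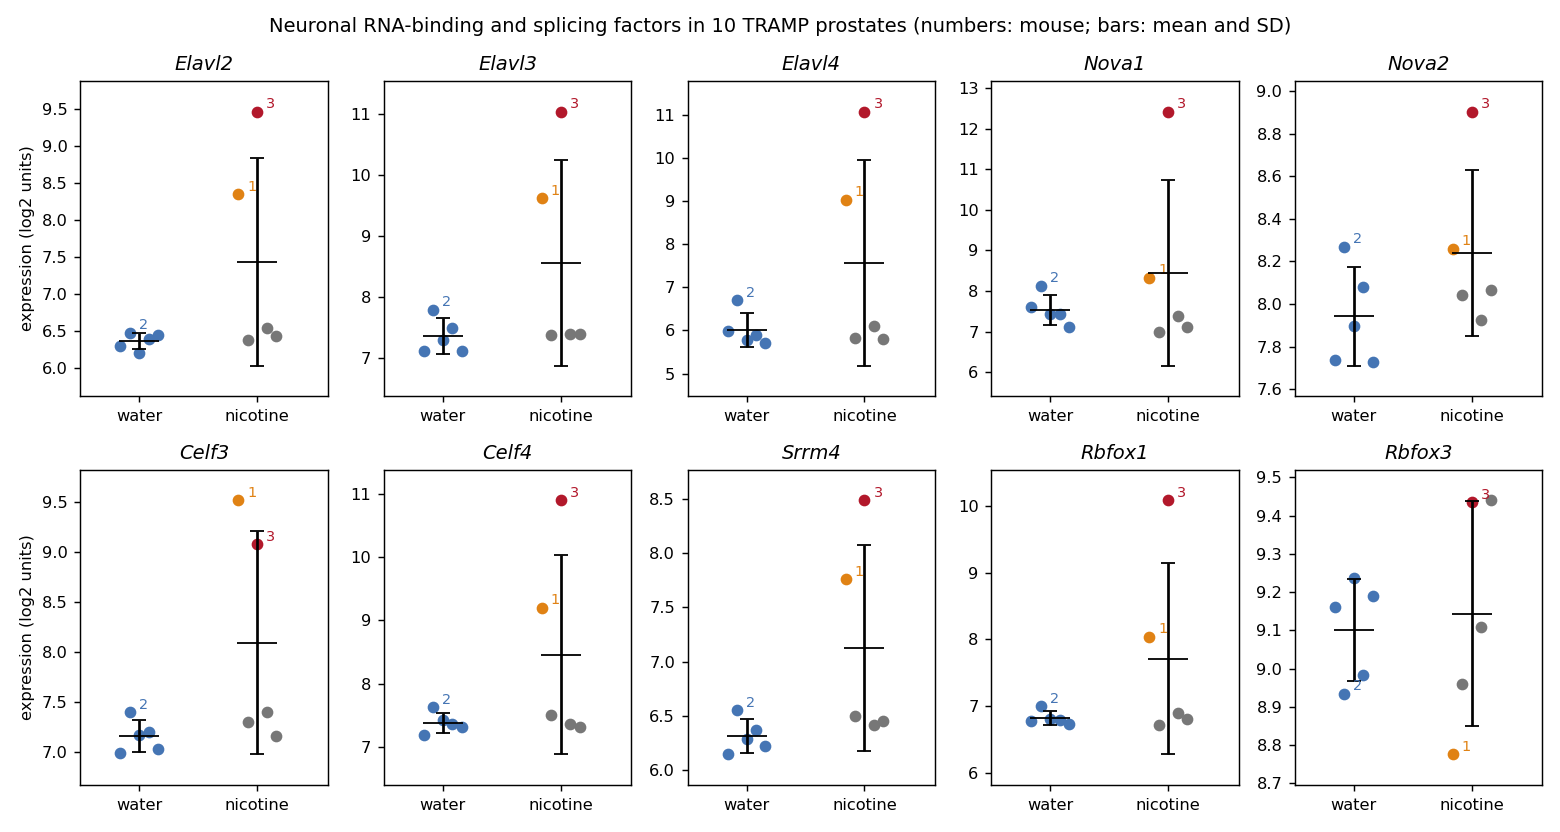
Expression of the 10 neuronal factors in log2 units, with 1 panel per gene and 1 point per mouse, water on the left and nicotine on the right. Bars give the mean and SD of 5 mice, and digits name water 2, nicotine 1 and nicotine 3. Vertical scales differ between panels; nicotine 3 is the highest point in 8 of the 10.

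Elavl4, which encodes HuD, had the second-largest range of the members, 5.36 log2 units. Its levels were 5.99, 6.70, 5.78, 5.89 and 5.71 log2 units in water mice 1 to 5 and 9.03, 5.83, 11.08, 6.10 and 5.80 in nicotine mice 1 to 5. Nicotine 3 was 33.4-fold and nicotine 1 was 8.08-fold over the water mean, which lies below the filter level, so these folds rest on a low baseline. The other 3 nicotine mice lay within the water range.

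Elavl3, which encodes HuC, was 7.11, 7.79, 7.31, 7.49 and 7.11 log2 units in the water mice and 9.62, 7.38, 11.03, 7.39 and 7.39 in the nicotine mice. Nicotine 1 and 3 were high and the other 3 nicotine mice lay within the water range. Elavl2, which encodes HuB, was 6.30, 6.47, 6.20, 6.38 and 6.45 in the water mice and 8.35, 6.37, 9.47, 6.54 and 6.43 in the nicotine mice. The water mean of Elavl3 is above the filter level, and nicotine 3 was 12.7-fold over that mean and nicotine 1 4.77-fold. Elavl2 was 8.62-fold and 3.96-fold over a water mean below the filter level. Their relative Elavl1 encodes HuR, which most tissues make. It was 10.61 ± 0.07 (SD, n = 5) in water mice, 10.96 in nicotine 1 and 11.11 in nicotine 3, a difference from the water mean of 0.35 and 0.50 log2 units.

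Nova1, a splicing regulator of brain and spinal cord, was the member that separated the 2 mice. Its levels were 7.60, 8.12, 7.43, 7.44 and 7.13 log2 units in water mice 1 to 5 and 8.33, 6.98, 12.42, 7.38 and 7.12 in nicotine mice 1 to 5. Nicotine 3 was 29.3-fold over the water mean, while nicotine 1 was 1.72-fold over it and next to water 2. Nicotine mice 2 and 5 lay just below the lowest water mouse. The second Nova1 probe set gave 12.04 in nicotine 3 and 7.12 in nicotine 1, the latter within its water range of 6.51 to 7.52. Nova2, its paralog, was 7.74, 8.27, 7.90, 8.08 and 7.73 in the water mice and 8.26, 8.04, 8.90, 7.92 and 8.07 in the nicotine mice, so that nicotine 3 alone lay outside the water range.

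Celf3, a splicing regulator of brain, was the only member with a higher level in nicotine 1 than in nicotine 3. It was 6.99, 7.40, 7.17, 7.20 and 7.03 log2 units in the water mice and 9.52, 7.30, 9.08, 7.41 and 7.16 in the nicotine mice, or 5.15-fold over the water mean in nicotine 1 and 3.79-fold in nicotine 3. Celf4, which is bound to brain messages at their 3′ ends, went the other way. It was 7.19, 7.63, 7.42, 7.36 and 7.31 in the water mice and 9.20, 7.50, 10.90, 7.36 and 7.32 in the nicotine mice. Among the genes more than 1 log2 unit above the water mean in both mice, 76.3% of 544 were higher in nicotine 3. Each mouse has a single array, so the difference between the 2 has no replicate check.

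Srrm4, the microexon regulator, was 6.14, 6.55, 6.28, 6.36 and 6.22 log2 units in the water mice and 7.76, 6.50, 8.49, 6.42 and 6.45 in the nicotine mice. That is 2.73-fold in nicotine 1 and 4.53-fold in nicotine 3 over a water mean below the filter level, with the other 3 nicotine mice inside the water range. Its relative Srrm3, which also acts on microexons, differed less, by 0.58 and 0.81 log2 units in these 2 mice from a water mean of 6.87 ± 0.12 (SD, n = 5).

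Rbfox1 is a splicing regulator of neurons and of skeletal and heart muscle. It was 6.78, 6.999, 6.80, 6.79 and 6.74 log2 units in the water mice and 8.04, 6.72, 10.08, 6.90 and 6.81 in the nicotine mice. Skeletal muscle markers were present in nicotine 1. There 7 of 7 tested markers lay above every water mouse, as did 34.1% of all tested genes. Their mean was 10.5 log2 units, against 7.57 to 7.74 in water mice. In nicotine 3 that mean was 7.41, below the water range, while Rbfox1 was 9.59-fold over the water mean. The part of muscle in the Rbfox1 value of nicotine 1 was not tested. Rbfox2, the broadly expressed relative, was 1.09 log2 units above the water mean in nicotine 1 and 0.94 in nicotine 3.

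Rbfox3, which encodes the neuronal nuclear antigen NeuN of mature neurons, did not share the pattern. Its levels were 9.16, 8.93, 9.24, 8.98 and 9.19 log2 units in the water mice and 8.78, 8.96, 9.43, 9.11 and 9.44 in the nicotine mice. Nicotine 1 was the lowest of all 10 mice and nicotine 3 was matched by nicotine 5. The range of Rbfox3 over the 10 mice was 0.66 log2 units, against a median of 3.32 for the 10 members and 0.71 for all tested genes.

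**Figure D2:**
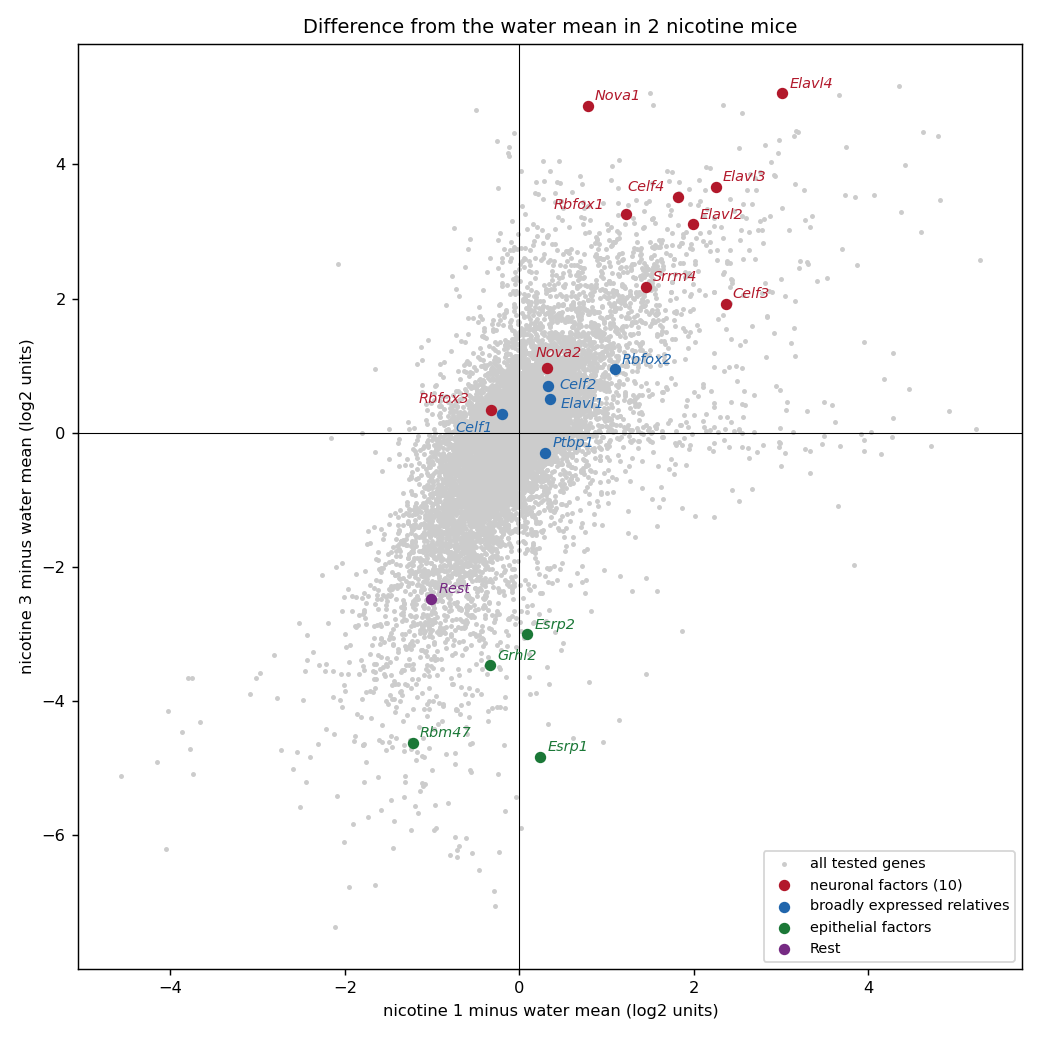
Difference from the water mean in nicotine 1 (horizontal axis) and nicotine 3 (vertical axis), in log2 units, for all 14953 tested genes in grey. Members are red, broadly expressed relatives blue, epithelial factors green and Rest purple. Most members lie at the upper right, Nova1 far up but near the middle, and the epithelial factors at the bottom.

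Nicotine against water, over 5 mice each, gave no member past the threshold. The largest log2 difference was 1.55 ± 0.98 (SE) for Elavl4, followed by 1.20 ± 0.69 for Elavl3, 1.08 ± 0.64 for Celf4 and 1.07 ± 0.57 for Elavl2. Celf3, Nova1, Rbfox1 and Srrm4 differed by 0.94 ± 0.46, 0.90 ± 0.94, 0.89 ± 0.58 and 0.81 ± 0.39, and Nova2 and Rbfox3 by 0.30 ± 0.19 and 0.04 ± 0.14. All 10 differences were positive, as were 50.7% of all tested genes, and their median was 0.92 against 0.00 for all tested genes. By limma with Benjamini-Hochberg adjustment over all tested genes the members' adjusted p ran from 0.458 to 0.864, and 0 of 10 members passed, as did 0% of the 14953 genes. At an unadjusted p under 0.05 there were 0 members and 1514 genes by limma, 640 of them higher (4.28%). With array weights, which were lowest for nicotine 1 and 3, 1096 genes passed the adjusted threshold, none a member. Groups did not overlap for 0 of 10 members, against 2.02% of tested genes higher and 2.88% lower.

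The differences rested on nicotine mice 1 and 3. In the fit without them, 3 nicotine against 5 water mice, the members' median difference was 0.047 log2 units and 7 of 10 were positive (53.5% of all tested genes). Elavl4 then differed by -0.10 ± 0.19 (SE), Elavl3 by 0.03 ± 0.14, Srrm4 by 0.14 ± 0.09 and Nova1 by -0.38 ± 0.18, and by limma the adjusted p of the members ran from 0.368 to 0.961. No member had an unadjusted p under 0.05 by limma in that fit, against 14.7% of all tested genes, and 0 genes passed after adjustment. The 2 mice were left out with the members' high values in them known. The smaller differences follow from that choice, so this fit is a description. Leaving out nicotine 3 alone brought the median of 0.92 to 0.47 with Nova1 at -0.091, and leaving out nicotine 1 alone to 0.82. Within a group, the SD between nicotine mice ran from 0.29 to 2.38 log2 units over the members, and between water mice from 0.10 to 0.40.

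**Figure D3:**
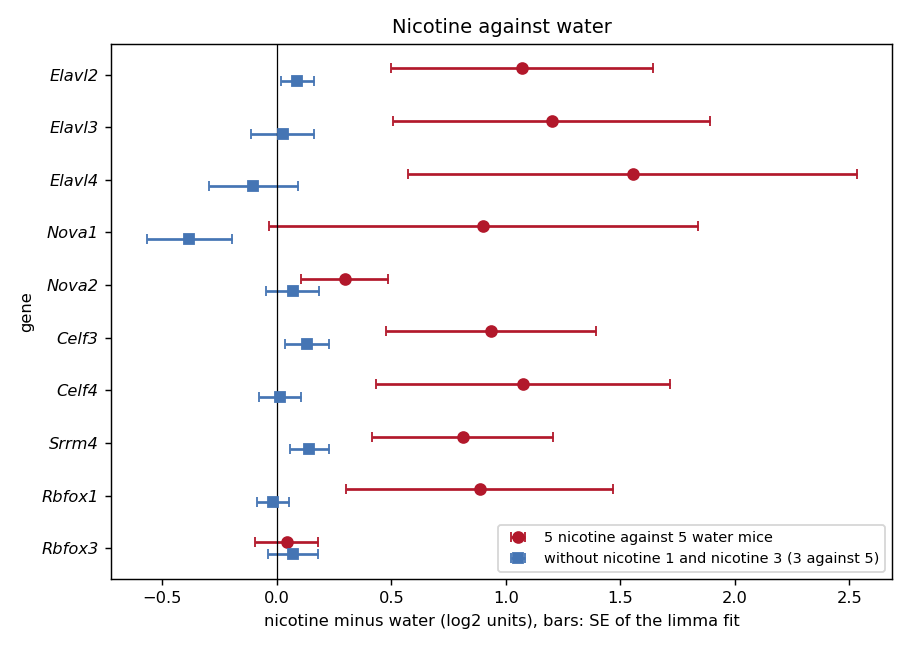
Log2 difference, nicotine minus water, for each member, with the SE of the limma fit as bars. Circles are the fit on all 10 mice and squares the fit without nicotine 1 and nicotine 3, in which the members lie between -0.38 and 0.14.

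Among the water mice, the neuronal factors were highest in a single animal. Water 2 was the highest of the 5 for 9 of 10 members, all but Rbfox3, and for 23.8% of all tested genes. It was also the highest of the 8 mice outside nicotine 1 and 3 for 7 members (13.9% of all tested genes). The steps were small: 6.70 against 5.71 to 5.99 log2 units in the other water mice for Elavl4, 6.999 against 6.74 to 6.80 for Rbfox1 and 8.27 against 7.73 to 8.08 for Nova2. The members share the array, so their agreement within 1 mouse is not independent. Of 11 tested neuroendocrine markers, 8 were also highest of the water mice in water 2. So were 3 of 7 autonomic neuron markers and 3 of 6 Schwann cell markers. The trait was not confined to neural lists, since 4 of 7 skeletal muscle markers were highest there too. The counts were 8 of 20 for other neuronal or developmental RNA-binding factors, and 0 for luminal, smooth muscle and fibroblast markers.

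Marker lists of cells that make these proteins were read beside them. All 11 tested neuroendocrine markers lay above every water mouse in nicotine 3 and 10 did so in nicotine 1. Of the 11, Scg3 and Dll3 had water means below the filter level, so they were tested only through their values in the nicotine group. The mean of the 11 was 9.91 log2 units in nicotine 3 and 9.22 in nicotine 1. It was 6.97 to 7.47 in water mice and 7.09 to 7.36 in the other 3 nicotine mice. The granule gene Chga was at 11.74 in nicotine 1 and 11.30 in nicotine 3, and the synaptic vesicle gene Syp at 9.39 and 10.30. Of the 7 tested autonomic neuron markers, 2 lay above every water mouse in nicotine 1 and 2 in nicotine 3. Of all tested genes, 34.1% did so in nicotine 1 and 38.0% in nicotine 3, which is the scale for such counts of each list here. Th and Dbh, both of noradrenaline synthesis, were within the water range in both mice. Prph, a neuronal intermediate filament gene, was 10.06 log2 units in nicotine 3 against 7.85 to 8.75 in water mice, and the transcription factor gene Phox2a was 7.34 there and 6.998 in nicotine 1 against 6.41 to 6.83. The mean of this list was 8.00 in nicotine 1 and 7.70 in nicotine 3 against 7.74 to 8.13 in water mice, and its place in nicotine 3 turned on Gata3, which was 7.48 there against 11.37 to 11.64 in water mice. Without Gata3 the mean of the other 6 was 7.74 in nicotine 3, above the water range of 7.13 to 7.59, and 7.59 in nicotine 1. That mean in nicotine 3 leaned on Prph, 1.74 log2 units above its water mean, while Phox2a was 0.73 above its own. Th, Dbh, Hand2 and Slc18a3 lay within their water ranges there. Of 6 tested Schwann cell markers, 1 lay above every water mouse in each of the 2 mice, which in nicotine 3 was the myelin gene Pmp22 (11.56 against 9.75 to 10.62). Sox10 and Mbp, a regulator and a myelin protein of these cells, lay below every water mouse in nicotine 3. The Schwann cell mean was 7.94 in nicotine 1 and 7.95 in nicotine 3 against 7.70 to 7.99 in water mice, and without Pmp22 it was 7.43 and 7.22 against 7.27 to 7.47. Scg3, Dll3, Prph, Phox2a, Hand2, Slc18a3, Gata3, Pmp22 and Mbp, and the means without a gene, were picked after their values were seen. The part of neurons and glia in the members' values was not tested. In these bulk samples, more cells of a type and more RNA per cell cannot be told apart.

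The prostate label was also read against its markers. Pbsn was between 10.95 and 11.54 log2 units in water mice, 9.17 in nicotine 1 and 5.08 in nicotine 3. All 7 tested luminal markers lay below every water mouse in nicotine 3, and 6 of 7 in nicotine 1. The other, Krt8, lay above every water mouse in nicotine 1, at 13.14 log2 units against 12.44 to 12.68. Krt8 is named here after its value was seen. The luminal mean was 11.04 in nicotine 1 and 6.87 in nicotine 3, against 11.82 to 12.13 in water mice. Of all 14953 tested genes, 6311 lay below every water mouse in nicotine 3 and 5777 in nicotine 1. Smooth muscle markers lay below every water mouse for 6 of 6 in nicotine 3 and 5 of 6 in nicotine 1, with a mean of 7.97 and 10.93 log2 units against 11.36 to 11.62 in water mice. Fibroblast markers did so for 4 of 5 and 3 of 5, with a mean of 8.18 and 9.45 against 9.80 to 10.26. Proliferation markers were higher in both, with 5 of 5 above every water mouse in each. Of all tested genes, 34.1% lay above every water mouse in nicotine 1 and 38.0% in nicotine 3. The proliferation mean was 10.66 in nicotine 1 and 11.65 in nicotine 3, against 9.49 to 9.73 in water mice. The part of tissue content in the members' values was not tested.

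Most other neuronal or developmental RNA-binding factors were higher in the same 2 mice, in smaller steps by the median. Above every water mouse lay 18 of 20 in nicotine 3 and 14 in nicotine 1 (38.0% and 34.1% of all tested genes). Below every water mouse lay 1 and 2 (6311 and 5777 of all 14953 tested genes). More than 1 log2 unit above the water mean in both mice lay 4 (3.64%). Of 20 tested genes of that list, 17 had a positive nicotine difference and 0 passed the limma test, and the median difference from the water mean was 0.25 log2 units for nicotine 1 and 0.92 for nicotine 3. For all tested genes those medians were -0.0056 and -0.019. Those with the largest mean difference in the 2 mice were the stem cell factor Msi1 (1.15 and 2.98 log2 units in nicotine 1 and 3), Mex3a (1.03 and 2.87), Pcbp4 (1.44 and 2.42) and Mex3b (0.75 and 2.66). Khdrbs2, a neuronal splicing factor whose mean was too low for the test, was 5.46 ± 0.07 (SD, n = 5) in water mice, 6.05 in nicotine 1 and 9.35 in nicotine 3. Ptbp2, the neuronal form of the polypyrimidine tract protein, was 9.74 in nicotine 1, level with its water mean of 9.77 ± 0.10 (SD, n = 5), and 11.53 in nicotine 3. The Celf relatives Celf5 and Celf6, named here after their values were seen, differed by 0.24 and 0.55 in nicotine 1 and by 1.64 and 0.86 in nicotine 3.

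Broadly expressed relatives showed no common direction. Of 15 tested genes, 7 had a positive and 8 a negative nicotine difference, 0 passed, and the median difference from the water mean was -0.04 in nicotine 1 and 0.28 in nicotine 3. Celf1 differed by -0.19 and 0.28 log2 units in the 2 mice, Celf2 by 0.33 and 0.71, and Ptbp1, which holds neuronal exons out in other cells, by 0.29 and -0.29. The muscleblind genes Mbnl1, Mbnl2 and Mbnl3 were lower in both mice. They differed by -1.004, -0.30 and -1.07 in nicotine 1 and by -0.65, -0.85 and -1.09 in nicotine 3. Of the general splicing factors, 19 of 26 had a positive nicotine difference and 0 passed, with a median difference from the water mean of 0.12 in nicotine 1 and 0.35 in nicotine 3. Srsf4 (0.64 and 0.84), Srsf1 (0.29 and 0.94), Hnrnpl (0.54 and 0.53) and Hnrnpd (0.20 and 0.77) were on average the furthest from the water mean.

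Epithelial factors were low in nicotine 3. In nicotine 1, Esrp1, Esrp2 and Grhl2 differed from the water mean by 0.24, 0.09 and -0.34 log2 units, and only Esrp2 lay within its water range. Esrp1, which sets epithelial exon choice, was 10.82 ± 0.08 (SD, n = 5) log2 units in water mice, 11.06 in nicotine 1 and 5.99 in nicotine 3. Its paralog Esrp2 was 9.57 ± 0.15 (SD, n = 5), 9.65 and 6.57, and Grhl2, a transcription factor of epithelia, 10.80 ± 0.13 (SD, n = 5), 10.46 and 7.33. Rbm47, an RNA-binding protein of gut and other epithelia, was lower in both mice, 9.55 and then 6.15, where the water mice had 10.77 ± 0.10 (SD, n = 5). Esrp1, Rbm47 and Grhl2 lay more than 3 log2 units below the water mean in nicotine 3, as did 2.26% of all tested genes, and Esrp2 was just short of that. Their nicotine differences, from -1.26 ± 0.79 (SE) for Rbm47 to -0.53 ± 0.56 for Esrp2, did not pass by limma.

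Rest, whose message Srrm4 splices, was 9.45 ± 0.19 (SD, n = 5) log2 units in water mice, 8.44 in nicotine 1 and 6.98 in nicotine 3. The remaining nicotine mice spanned 9.43 to 9.52. It lay below every water mouse in both, as did 28.5% of all tested genes. It was more than 1 log2 unit below the water mean in each, as were 4.60% of genes in nicotine 1 and 14.3% in nicotine 3. Its nicotine difference was -0.68 ± 0.45 (SE, adjusted p = 0.469 by limma). Of the 9 tested genes of the list of Rest and its partners, 7 had a positive nicotine difference and 0 passed. The corepressor Rcor2 was 1.43 and 2.08 log2 units above the water mean in nicotine 1 and 3, the deacetylase Hdac2 0.80 and 1.41, and the demethylase Kdm1a 0.55 and 0.51. Whether the Rest values reflect transcript level or a change of isoform was not tested.

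**Figure D4:**
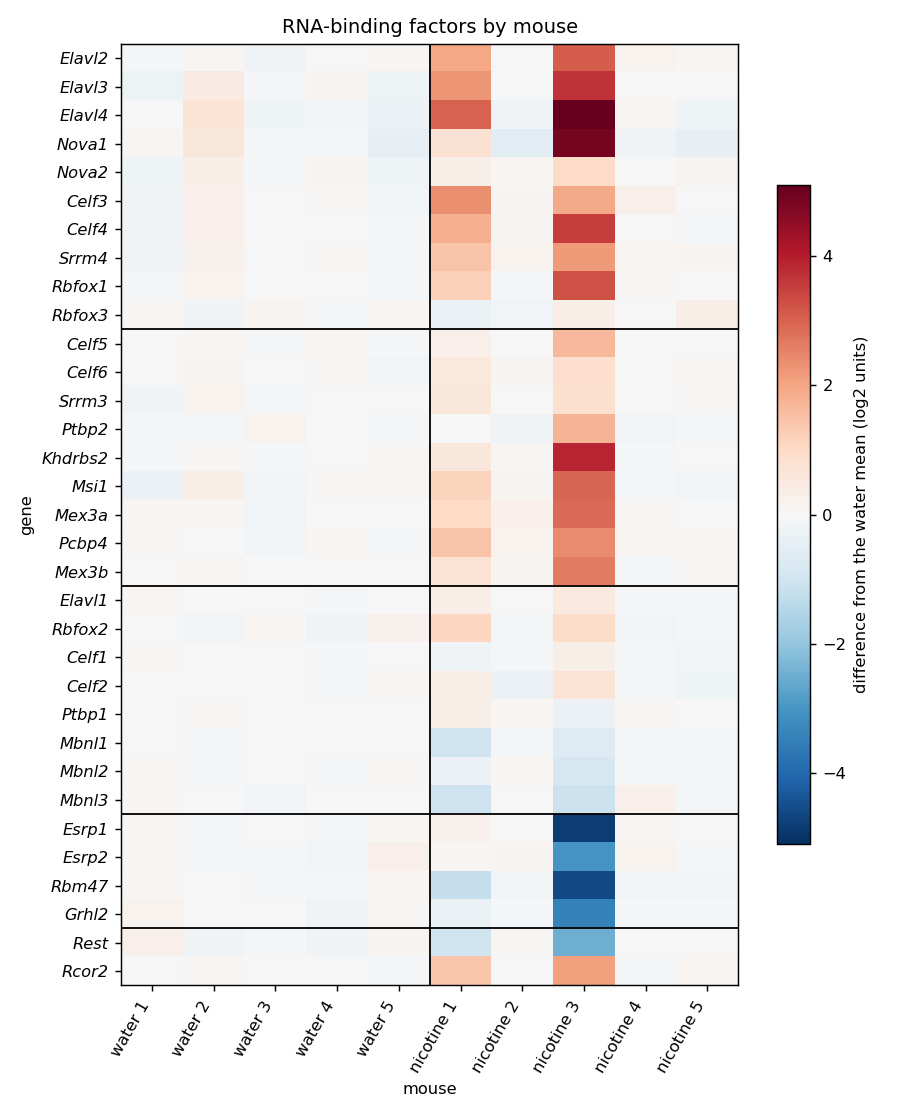
Difference from the water mean, in log2 units, for the 10 members and 23 further RNA-binding factors and Rest-related genes (rows) in each mouse (columns). Lines separate members, neuronal factors, broadly expressed relatives, epithelial factors and Rest with Rcor2. The strongest colours are in the columns of nicotine 1 and nicotine 3, and Esrp1, Esrp2 and Khdrbs2 are strong in nicotine 3 and pale in nicotine 1.

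The genes most like the 3 members with the largest range were found by the root mean square difference over the 10 mice, after each gene's water mean was subtracted, among 14115 tested genes without predicted or clone names. For Elavl3 these were Sv2a, a synaptic vesicle protein gene (0.12 log2 units), Unc79 (0.14) and Myt1 (0.15). For Elavl4 they were Sox11 (0.24), Scg3 (0.24) and Rtn1 (0.28). For Nova1 they were the kainate receptor gene Grik2 (0.36), Kcnmb2 (0.37) and Tagln3 (0.39), all of which were higher than Nova1 in nicotine 1 relative to water. Likeness here rests on 2 mice. Grik2, Kcnmb2, Sox11, Scg3, Unc79 and Myt1 had water means below the filter level. They were therefore tested only through their values in the nicotine group. Their match to members high in the same mice is in part built in by the filter and supports nothing.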

How the data were processed

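The authors deposited 1 table of log2 values for 35556 probe sets on 10 arrays; the scale was read from the range, 3.59 to 14.1, with array medians from 7.50 to 7.57. How probe signals were background-corrected, summarised and normalized is not stated in the labels or the table. RNA was extracted with Trizol and amplified and labelled with Ambion and Affymetrix kits, per the labels' protocols. The platform annotation, which can be old, gave 21789 probe sets 1 symbol, 1621 several and left 12146 unnamed; 21698 had an Entrez identifier found in RefSeq (GRCm38.p6), which altered 0 symbols. The build of that annotation is not given, so no gene coordinates were used, only those of the RefSeq promoter table. Nova1 was the 1 member with several probe sets, of which the higher on average was used.

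A filter removed the lowest 25% of genes by mean. The test of nicotine against water was limma 3.58.1 (R 4.3.3; lmFit and eBayes, two-sided, threshold 0.05). Alternatives changed the filter, the choice of probe set, the scaling, the variance model, array weights, a replicate block, a principal component and the mice used. Separate numbers mark separate mice with 1 array each; nothing says more of litters or cages, and the number of arrays limits the precision. No batch is named in the labels. Data of 14953 genes were simulated from normal distributions with the real means, and genes were drawn independently. Each gene had 1 spread for all mice, pooled over the 2 groups. In the data the median SD was 0.26 log2 units in nicotine mice and 0.097 in water mice. The setting therefore differs from the data, in which 2 nicotine mice stand apart for many genes at once. Of genes changed by 0.5 log2 units 42.7% were recovered, with 74.5% at 1 and 91.7% at 2. Among the calls, 6.12% were false. These shares are for all genes together and do not give the chance of calling a member. The SD between nicotine mice ran from 0.29 to 2.38 log2 units over the members, against a median of 0.26 for all tested genes. Recovery at the members' spread was not tested.

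The members, the lists and the alternatives were chosen with earlier results of these data known. Named genes are all members, the 4 genes per list with the largest mean difference in nicotine 1 and 3, 9 genes picked by name, the first of each marker list, and the 3 genes most like each of the 3 members with the largest range. Exceptions are marked in the text. Lists are described by counts and medians with no test of their own. Some genes of the lists are not analysed here.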

Additional observations from a re-analysis of the deposited data

Results flagged for a closer look

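In groups of 5 mice, the highest or lowest mouse stood apart in 14 of 74 groups examined. For genes chosen without regard to their values, chance gives about 1 in 20. Most genes examined here were picked for their values in nicotine 1 and 3, and many of these groups share the same mouse. The count is therefore a description and cannot be weighed against that rate. Among the members, nicotine 3 stood above the other nicotine mice for Nova1 (12.42 log2 units, next mouse 8.33), and water 2 stood above the other water mice for Elavl4 (6.70, next 5.99) and Rbfox1 (6.999, next 6.80).

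Among the relatives, nicotine 3 was apart for the epithelial factors Esrp1 (5.99, next 10.79), Rbm47 (6.15, next 9.55), Esrp2 (6.57, next 9.51) and Grhl2 (7.33, next 10.46), and for Khdrbs2 (9.35, next 6.05), Ptbp2 (11.53, next 9.74) and Celf1 (10.93, next 10.58). Water 2 was apart for Mex3b (7.86, next 7.76) and, as the lowest, Mbnl1 (11.23, next 11.37). Water 3 was apart for Ptbp2 (9.96, next 9.74) and water 1 for Srsf1 (10.39, next 10.22).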

How the results depend on the processing

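With another filter, another rule for probe sets, quantile normalization again or centring on array medians, no member changed sign and no gene passed; with the lowest 50% of genes left out, 5 members were tested. Array weights gave 1096 genes past the threshold, against 0 in the other settings, and brought the members' median to 0.068 with Elavl4 at -0.030 and Nova1 at -0.35 log2 units. With the first principal component as a covariate the members' median was 0.023, and Elavl4 (-0.038), Nova1 (-0.62), Rbfox1 (-0.081) and Rbfox3 (-0.0063) were negative. Without nicotine 1 and nicotine 3 the median was 0.047, and Elavl4 (-0.10), Nova1 (-0.38) and Rbfox1 (-0.015) were negative. Leaving out 1 mouse at a time, the median ran from 0.47 to 1.20 and the count of genes past the threshold was 0 each time; Nova1 ran from -0.091 without nicotine 3 to 1.27, and Rbfox3 from -0.031 without nicotine 5 to 0.14, and it was also negative without nicotine 3. The cause of these changes was not tested beyond the arrays left out.

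The mouse numbers occur in both groups, but deviations of same-numbered mice correlated between -0.13 and 0.16, and 1 of 5 water mice correlated best with its own number. With the replicate block 0 genes passed and the members' median stayed at 0.92. With 5 arrays a group, precision is set by the spread between nicotine mice.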
